A study of Mus musculus with 7 samples.

Results

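Of 21631 protein-coding genes on the autosomes and the X chromosome, 9 genes of hair follicle stem cells and hair placodes were examined for trimethylation of lysine 27 on histone H3 (H3K27me3). These were Lhx2, Tbx1, Nfatc1, Cux1, Lgr5, Foxi3, Edar, Lef1 and Foxn1, taken by name with earlier results of these data known. Each was examined over its gene body (mm10, RefSeq) extended by 10 kb on both sides. The mark had been mapped by ChIP-seq, in which chromatin carrying it is pulled down with an antibody and sequenced, in epidermal cells from the backs of newborn mice (postnatal day 0). Control cells had 2 immunoprecipitation libraries, as did cells of the Ring1a/b 2KO genotype, which lack both Ring1a and Ring1b, the ubiquitin ligases of Polycomb repressive complex 1. Each genotype had 1 list of called peaks. The cells had been sorted for EpCAM, Sca1 and high α6-integrin, a gate that enriches the epidermis between follicles. Whether follicle cells were left in the sort was not measured. The labels give no strain, allele or Cre driver. The titles of the 2KO libraries name H3K27me1, whereas their antibody label and the peak list name H3K27me3, and the list was read as H3K27me3.

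H3K27me3 is deposited by Polycomb repressive complex 2 and is found over silent developmental genes, often as broad domains across the start of the gene. Polycomb repressive complex 1 binds the mark and ubiquitinates histone H2A. A hair follicle begins as a placode, a local thickening of the embryonic epidermis formed under Wnt and ectodysplasin signals. It later keeps a reservoir of stem cells in the bulge.

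The lists held 3631 control peaks and 2340 2KO peaks with no height or score, so each value below is a position or a called length. Since a genotype had a single list, the spread between replicates could not be measured and the genotypes could not be tested against each other. The depth of the libraries was unknown, and a stretch with no called peak is not shown to lack the mark. None of 10 marker genes of the basal epidermis, such as Krt5, Krt14 and Trp63, had a peak within 10 kb in either list. Over all protein-coding genes the shares were 14.9% for control peaks and 11.2% for 2KO peaks. In so short a list, a count of none is near them. Markers of cells outside the gate were also counted. Control peaks lay at 9 of 10 fibroblast and dermal papilla genes, 7 of 8 Merkel cell genes and 3 of 8 melanocyte genes. They also lay at 2 of 7 immune and 2 of 5 endothelial genes. In the same order, 2KO peaks lay at 7, 6, 1, 3 and 2 genes of these marker sets. The immune marker Cd207 had a 2KO peak only. The presence of other cell types cannot be read from these counts, and its part in the results was not tested.

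Control peaks were called at 6 of the 9 genes and 2KO peaks at 2 of the 9. Lhx2, Tbx1, Nfatc1 and Cux1 were marked in the control list only. Lgr5 and Foxi3 were marked in both lists, and Edar, Lef1 and Foxn1 in neither. Over all protein-coding genes, 14.9% had a control peak in the same window, 11.2% a 2KO peak, 8.90% peaks of both lists and 5.98% a control peak with no 2KO peak. In the 6 marked genes the windows held 121 kb of called control length in 11 peaks, of which 10.5 kb (8.71%) lay under 2KO peaks. Over all 3219 control-marked genes, 51.9% of the control length in the windows lay under 2KO peaks and the median gene had 52.7%. In 1341 of these genes (41.7%) no control base lay under a 2KO peak, as at Lhx2, Tbx1, Nfatc1 and Cux1. The members' share rests on few genes: it was 2.32% without Lgr5 and 13.9% without Lhx2. No peak was shared between 2 of the 9 genes.

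**Figure D1:**
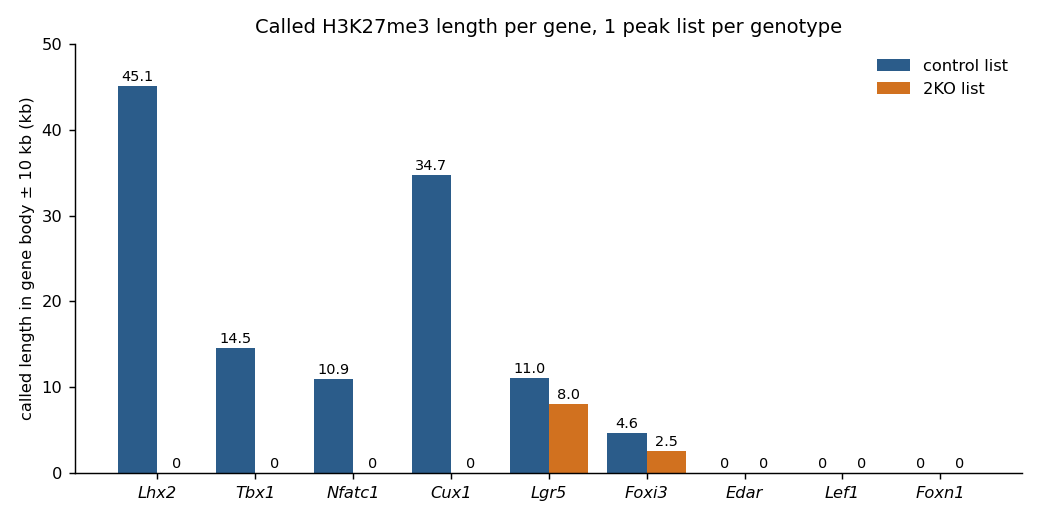
Called H3K27me3 length in kb within the gene body extended by 10 kb, for the 9 genes, in the control list (blue) and the 2KO list (orange), with 1 list per genotype and therefore no error bars. Lhx2 and Cux1 have the tallest control bars, at 45.1 and 34.7 kb, and only Lgr5 and Foxi3 have 2KO bars.

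Promoter sequences are shown for 3 genes with a listed start under a control peak that was not called in the 2KO list (Lhx2, Tbx1, Cux1). They are also shown for Foxi3, whose promoter was under the control peak and just outside the 2KO peak, and for Edar and Foxn1, which had no peak. Each runs from 250 bases before to 50 bases after an annotated start (RefSeq, GRCm38.p6, which is the assembly of mm10), read along the strand of the gene. For Lhx2 and Tbx1, which have 2 listed starts each, the outer one is shown. Capitals mark CpG dinucleotides, the motif CG, which reads the same on both strands.
Lhx2, chr2:38339031-38339330, plus strand: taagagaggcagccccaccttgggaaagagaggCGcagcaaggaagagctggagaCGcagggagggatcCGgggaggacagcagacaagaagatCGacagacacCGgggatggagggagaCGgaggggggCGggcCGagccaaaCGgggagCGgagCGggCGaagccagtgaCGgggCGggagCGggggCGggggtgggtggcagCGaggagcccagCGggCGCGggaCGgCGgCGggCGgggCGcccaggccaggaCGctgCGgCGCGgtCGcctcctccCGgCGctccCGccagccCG
Tbx1, chr16:18590622-18590921, minus strand: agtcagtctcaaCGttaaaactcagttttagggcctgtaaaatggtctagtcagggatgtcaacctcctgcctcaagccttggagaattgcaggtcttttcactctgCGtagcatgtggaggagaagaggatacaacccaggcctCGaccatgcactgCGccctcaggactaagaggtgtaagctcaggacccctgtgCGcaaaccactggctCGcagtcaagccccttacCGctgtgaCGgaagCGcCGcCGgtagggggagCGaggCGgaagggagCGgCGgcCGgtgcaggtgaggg
Cux1, chr5:136565932-136566231, minus strand: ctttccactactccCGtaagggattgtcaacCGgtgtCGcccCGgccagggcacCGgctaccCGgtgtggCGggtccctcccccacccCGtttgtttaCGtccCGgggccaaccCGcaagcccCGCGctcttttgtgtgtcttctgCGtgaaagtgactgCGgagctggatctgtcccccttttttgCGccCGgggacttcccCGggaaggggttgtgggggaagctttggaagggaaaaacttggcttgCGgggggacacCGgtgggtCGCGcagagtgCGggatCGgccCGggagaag
Foxi3, chr6:70956356-70956655, plus strand: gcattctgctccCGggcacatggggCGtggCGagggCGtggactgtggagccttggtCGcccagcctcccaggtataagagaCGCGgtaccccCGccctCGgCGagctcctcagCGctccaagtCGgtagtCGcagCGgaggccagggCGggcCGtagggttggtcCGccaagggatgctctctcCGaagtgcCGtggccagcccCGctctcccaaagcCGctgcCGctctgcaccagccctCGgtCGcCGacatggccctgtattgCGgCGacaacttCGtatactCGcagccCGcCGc
Edar, chr10:58675647-58675946, minus strand: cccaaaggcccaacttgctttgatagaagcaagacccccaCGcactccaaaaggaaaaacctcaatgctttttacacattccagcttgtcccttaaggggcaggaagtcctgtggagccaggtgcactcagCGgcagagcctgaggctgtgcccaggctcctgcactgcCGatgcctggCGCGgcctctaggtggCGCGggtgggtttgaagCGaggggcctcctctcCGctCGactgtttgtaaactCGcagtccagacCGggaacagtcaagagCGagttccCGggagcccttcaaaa
Foxn1, chr11:78386559-78386858, minus strand: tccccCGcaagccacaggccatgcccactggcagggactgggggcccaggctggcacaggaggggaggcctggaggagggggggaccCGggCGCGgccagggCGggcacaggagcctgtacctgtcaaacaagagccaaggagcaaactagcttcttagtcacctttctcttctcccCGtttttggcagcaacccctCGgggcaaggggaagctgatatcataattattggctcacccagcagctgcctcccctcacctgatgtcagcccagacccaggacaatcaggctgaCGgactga

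The windows above differ in how many capitals they carry. That of Lhx2 holds 34 CpG, Foxi3 31, Cux1 25, Tbx1 16, Edar 14 and Foxn1 8, beside a median of 13.0 over 21045 promoter windows of protein-coding genes. The inner starts of Lhx2 and Tbx1 have 29 and 26 CpG. Lef1 has 4 listed starts with 18, 21, 8 and 5 CpG, the first 2 of which overlap. A count at least as high as that of the outer Lhx2 window was found in 10.3% of all windows, and one as high as that of Foxn1 in 62.1%. The table of promoters holds 7 of the 9 genes, with 12 windows, and lacks Nfatc1 and Lgr5. The 6 windows of Lhx2, Tbx1, Cux1 and Foxi3 lay wholly under control peaks and the 6 of Edar, Lef1 and Foxn1 under no peak. None of the 12 was touched by a 2KO peak, and that of Foxi3 lay 79 bp from one. Lgr5, which had a 2KO peak across its upper end, is not among the genes counted. Of all windows, 7.61% lay under a control peak and 4.49% under a 2KO peak, and 52.1% of the control-covered ones were also under a 2KO peak. Among these 12 windows, those under a control peak ranged from 16 to 34 CpG and those under none from 5 to 21, so the ranges overlap.

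**Figure D2:**
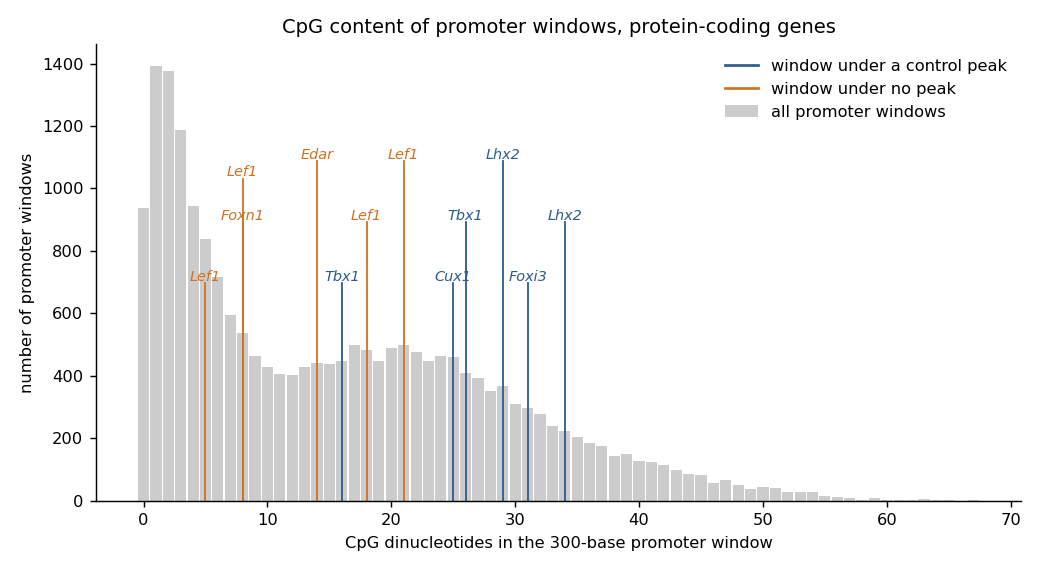
Number of 300-base promoter windows of protein-coding genes (vertical axis, grey bars) by their count of CpG dinucleotides (horizontal axis), with lines for the listed starts of 7 genes, blue under a control peak and orange under no peak. The heights of the lines carry no value. The blue lines stand at 16 to 34 CpG and the orange lines at 5 to 21.

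Lhx2 encodes a LIM homeodomain transcription factor that is active from the placode stage and helps maintain follicle stem cells. The gene (chr2:38339271-38369737, plus strand, 30.5 kb) lay wholly within a control domain of 43.9 kb (chr2:38330926-38374838) that began 8.35 kb before it and ended 5.10 kb past it. Both listed start sites lay inside the domain. Beyond a gap of 3748 bp followed a narrow control peak of 1.22 kb (chr2:38378587-38379804), and then one of 6.14 kb (chr2:38381835-38387974) outside the window. None of these 3 peaks held a base of a 2KO peak, and the nearest 2KO peak was 335 kb from the gene, over Nr5a1 (chr2:38704389-38714083, 9.70 kb). The called length in the window thus went from 45.1 kb, or 89.3% of the window, to 0 kb.

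By width, the Lhx2 domain stood at rank 21 of 3631 control peaks. Of the 21 control peaks at least as wide, 5 had no 2KO base, the Lhx2 domain included. Among control peaks of 40 kb or more, 23 of 29 were met by a 2KO peak, a share of 79.3%. The share was 28.7% among peaks under 3 kb. Within 500 kb of Lhx2 and outside its window, 1 of 3 control peaks was met by a 2KO peak and 44.2% of their called length lay under it.

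Tbx1 encodes a T-box factor that in skin is known for stem cell renewal in the follicle. The gene (chr16:18580979-18590671, minus strand, 9.69 kb) and both its listed starts lay inside a control peak of 14.5 kb (chr16:18579126-18593664, rank 319 by width). No 2KO peak fell in the window. The next control peak, 27.8 kb from the gene over Gp1bb and Septin5 (chr16:18618437-18627160, 8.72 kb), was still called in the 2KO list, as a peak of 3.87 kb (chr16:18619317-18623182) that covered 44.3% of it. Within 500 kb, both control peaks outside the Tbx1 window were met by 2KO peaks, over 63.4% of their length. The peak over Tbx1 was thus missing from the 2KO list beside neighbours that were kept in part. With a window of 50 kb Tbx1 counts as marked in both lists through this neighbour.

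Nfatc1 encodes a calcium-regulated transcription factor that keeps bulge stem cells quiescent. Its control peak (chr18:80703445-80714345, 10.9 kb, rank 503) lay across the upper end of the gene (chr18:80606205-80713071, 107 kb), with 9.63 kb inside the gene and 1.27 kb past it. No 2KO peak lay nearer than 237 kb. In the 500 kb around Nfatc1, all 5 control peaks outside its window were met by 2KO peaks, over 74.0% of their length. Here too the peak at the gene was not called in the 2KO list while the surrounding ones were. Among all genes with windows of 100 to 200 kb, like that of Nfatc1, 21.7% had a control peak and 50.9% of these also a 2KO peak.

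Cux1 encodes a homeodomain repressor, also known as the CCAAT displacement protein, with a known role in the inner root sheath of the hair. It is the longest of the 9 genes (chr5:136248135-136567590, minus strand, 319 kb), and a long window meets a peak more easily: of all genes with windows of 200 kb or more, 42.5% had a control peak. The window of Cux1 held parts of 5 control peaks and no 2KO peak. A peak of 6.24 kb (chr5:136560053-136566293) covered the listed start and ended 62 bp beyond the promoter window. The listed start lies inside the gene, and the upper end of the gene itself was under no control peak. It fell in a stretch of 1425 bp without a call. After this stretch came the widest peak, of 24.0 kb (chr5:136567719-136591706), which began 128 bp outside the gene. Counted outwards from the start, 5 control peaks covered 55.0 kb of a span of 68.2 kb. A peak of 12.5 kb (chr5:136507748-136520267) lay inside the gene. The remaining peaks, of 9.85 and 3.97 kb, lay over the neighbouring gene Sh2b2, and without them the called control length in the window was 28.6 kb in place of 34.7 kb.

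None of these Cux1 peaks held a 2KO base, and the nearest 2KO peak was 313 kb away, over Col26a1 (chr5:136880999-136887771). Of 11 control peaks within 500 kb and outside the window, 4 were met by 2KO peaks, over 23.3% of the called control length there. The 11 include the 3 outermost peaks of the run described above. Over the whole control list, 1910 of 3631 peaks held no 2KO base. The count of unmet peaks around Cux1 is therefore not set apart from the list. At Tbx1 and Nfatc1 all control peaks nearby were met, but these were few.

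Lgr5 encodes a receptor for R-spondins, which raise Wnt signalling, and marks cycling follicle stem cells. It was one of 2 genes with peaks in both lists. The control peak (chr10:115580320-115591346, 11.0 kb, rank 491) lay across the upper end of the gene (chr10:115450314-115587780, 137 kb), and the 2KO peak (chr10:115582024-115590003, 7.98 kb) lay wholly inside it. The 2KO peak was shorter by 1704 bp at its lower and 1343 bp at its upper edge and covered 72.4% of the control peak. The control peak also covered 2135 bp of the overlapping gene A930009A15Rik, so it cannot be assigned to Lgr5 alone. No other control peak lay within 500 kb of Lgr5, and 1 further 2KO peak (2.92 kb) did. Nfatc1 and Lgr5 had control peaks of nearly the same width, at the upper end of genes of similar length, and differed in the 2KO list.

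Foxi3 encodes a forkhead factor of the hair placode downstream of ectodysplasin signalling. The gene is short (chr6:70956606-70961066, plus strand, 4.46 kb). Its control peak (chr6:70953694-70958313, 4.62 kb, rank 1874) reached from 2.91 kb upstream to 1708 bp inside the gene. The 2KO peak (chr6:70953734-70956276, 2.54 kb) began 40 bp inside the same lower edge and ended 329 bp before the gene. The upstream stretch was therefore called in both lists, whereas the promoter and the first part of the gene were called in the control list only. The 2KO peak covered 55.0% of the control peak. Counting the gene body alone, Foxi3 was marked only in the control list, and 1 of the 9 genes had a 2KO peak. No control peak lay elsewhere within 500 kb.

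**Figure D3:**
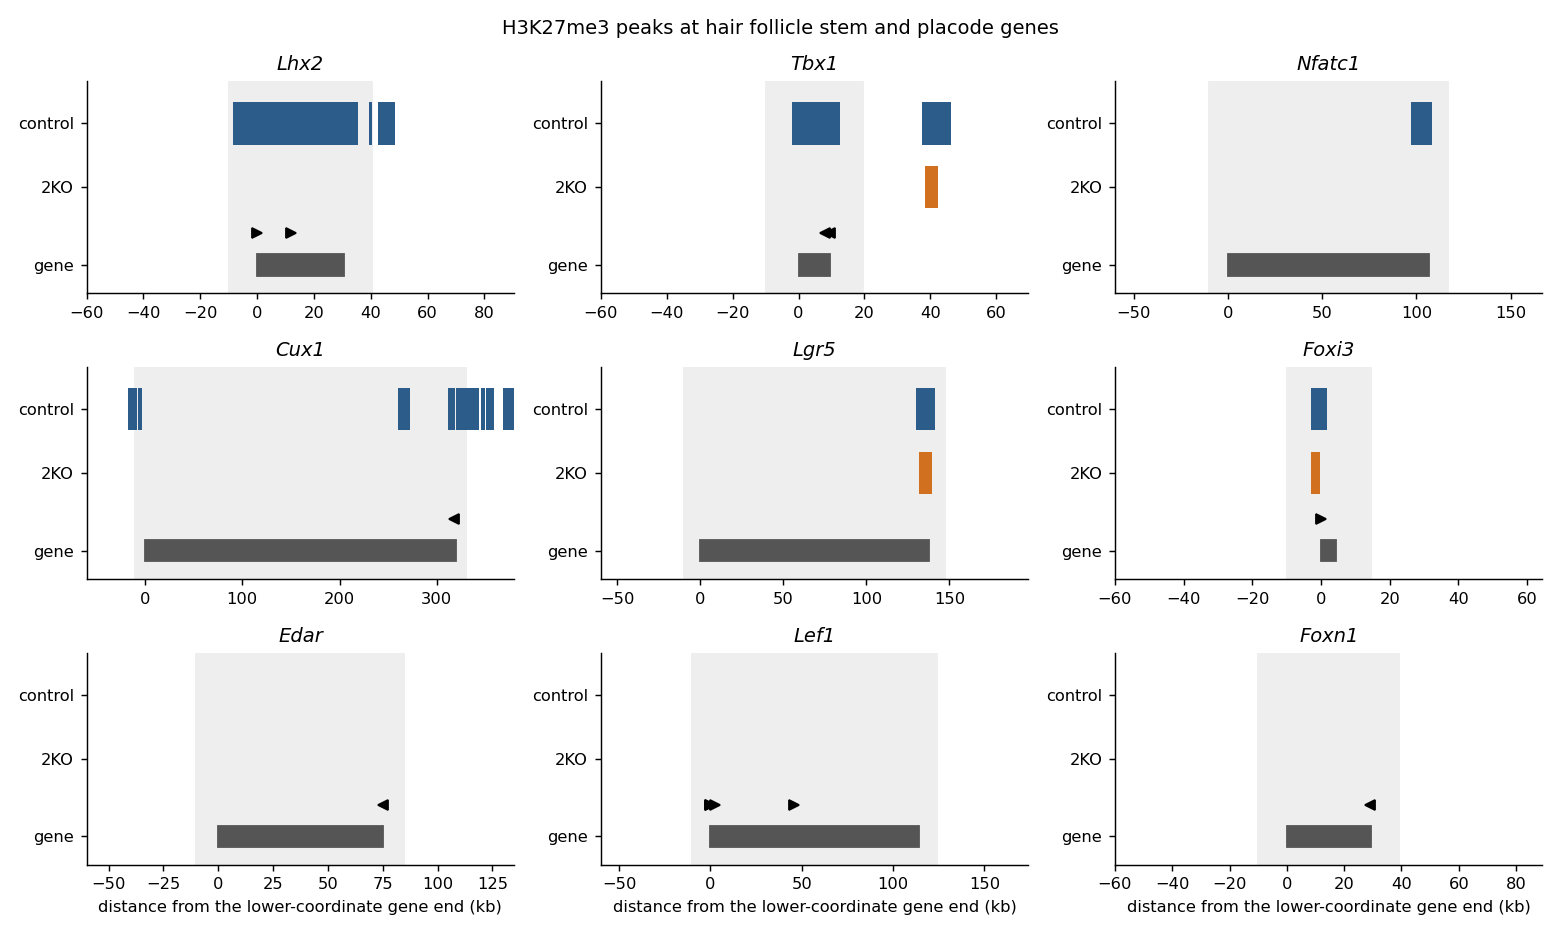
Peaks called at each of the 9 genes, drawn to scale with a separate horizontal axis for each gene, in kb from its lower-coordinate end. Blue boxes are control peaks and orange boxes 2KO peaks within 60 kb of the gene, the dark bar is the gene body, the grey area is the gene body extended by 10 kb, and arrowheads are the listed start sites and their direction (not listed for Nfatc1 and Lgr5). At Lhx2 the control peak spans the whole gene, and only at Lgr5 and Foxi3 does an orange box lie in the grey area.

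Edar, Lef1 and Foxn1 had no called peak in either list. Edar, the receptor for ectodysplasin (chr10:58600780-58675696, 74.9 kb), lay farthest from any peak, 813 kb from the nearest control peak (at Fabp7) and 966 kb from the nearest 2KO peak. Lef1 (chr3:131110297-131224357, 114 kb), the DNA-binding partner of β-catenin in Wnt signalling, lay 303 kb from a control peak and 859 kb from a 2KO peak, the latter at Dkk2. Foxn1 (chr11:78357577-78386783, 29.2 kb), the factor of hair shaft differentiation mutated in nude mice, lay about 100 kb from peaks of both lists over Sarm1, at 101 kb for the control and 100 kb for the 2KO peak. All 5 control peaks within 500 kb of Foxn1 and outside its window were met by 2KO peaks, over 59.6% of their length. Of the 3 members grouped as placode factors (Foxi3, Edar and Lef1), Foxi3 alone carried a call. Of the 6 grouped as stem cell and hair shaft factors, Foxn1 alone carried none. Over all protein-coding genes 14.9% had a control peak. The groups are small and were assigned by hand, and Lhx2, placed in the second, is also active in the placode.

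Of the 11 control peaks in these windows, 9 had no 2KO base, beside 1910 of all 3631 control peaks. The 9 were 1.22 to 43.9 kb wide, within a range of 550 bp to 131 kb over all control peaks. Of all control peaks from 10 to 20 kb, 62.4% were met by a 2KO peak, and from 20 to 40 kb 82.6%. The peaks at Tbx1 (14.5 kb), Nfatc1 (10.9 kb) and inside Cux1 (12.5 kb) belong to the former class and the outer Cux1 peak (24.0 kb) to the latter. The other unmet peaks beside the Lhx2 domain came from classes of lower shares. The share was 55.7% from 5 to 10 kb, the class of the Cux1 start peak (6.24 kb) and of a peak over Sh2b2 (9.85 kb). It was 42.3% from 3 to 5 kb, which holds the other Sh2b2 peak (3.97 kb, unmet) and the Foxi3 peak (4.62 kb, met), and 28.7% below 3 kb, the class of the narrow peak past Lhx2 (1.22 kb).

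**Figure D4:**
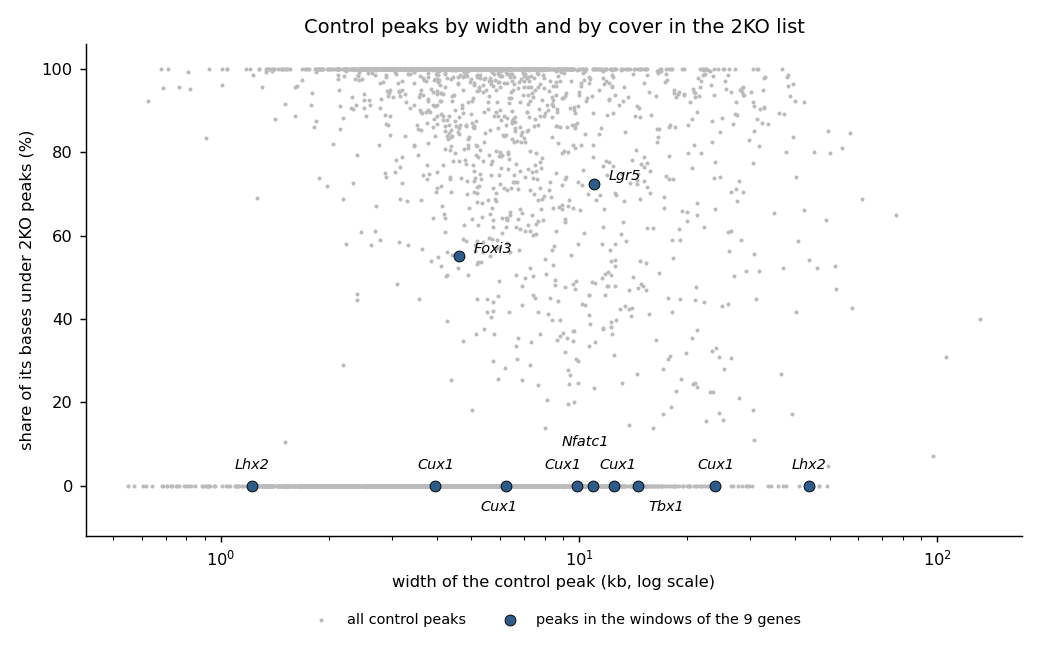
Width of each of the 3631 control peaks in kb (horizontal, log scale) against the share of its bases under 2KO peaks in percent (vertical). Grey points are all control peaks and blue points the 11 in the windows of the 9 genes. Only Lgr5 (72.4%) and Foxi3 (55.0%) lie above 0.

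The closest paralogs of the 9 genes, which share their protein family, were set beside them. Of 28 paralogs, 14 had control peaks and the same 14 had 2KO peaks, and 81.5% of their called control length lay under 2KO peaks. Over all protein-coding genes 14.9% had a control peak and 59.8% of these also a 2KO peak, with 51.9% of the control length under 2KO peaks. The list of paralogs was drawn up with earlier results of these data known, and many of its genes are factors of other tissues. In the LIM homeobox family the contrast with Lhx2 was seen in every paralog listed. All 7, namely Lhx1, Lhx3, Lhx4, Lhx5, Lhx6, Lhx8 and Lhx9, had peaks of both lists, with 16.9 to 32.7 kb of control and 16.0 to 28.8 kb of 2KO length. Between 74.5 and 100% of their control length lay under 2KO peaks (median 95.1%), against 0% at Lhx2. Lhx4, a factor of motor neurons and pituitary, had 28.6 kb in the control and 28.8 kb in the 2KO list. Lhx6, a factor of cortical interneurons, had 32.7 and 24.8 kb, and Lhx9, a factor of limb and gonad, 25.7 and 24.6 kb.

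The other families held fewer marked paralogs. In the T-box family, Tbx15, which acts in dermal and skeletal mesenchyme, had 37.7 kb in the control and 30.2 kb in the 2KO list, with 80.2% of the control length kept. Of the T-box paralogs listed, 3 of 4 were marked in both lists with 67.0 to 83.9% kept, while Tbx1 had 0%. The following paralogs were singled out after their values were seen. Nfatc2 kept 54.1% of 10.3 kb and Cux2 27.3% of 16.0 kb. Foxi2 kept 94.9% of 5.50 kb, and Foxn4 100% of 10.2 kb although Foxn1 had no peak. No paralog of Lgr5, Edar or Lef1 was marked in either list.

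**Figure D5:**
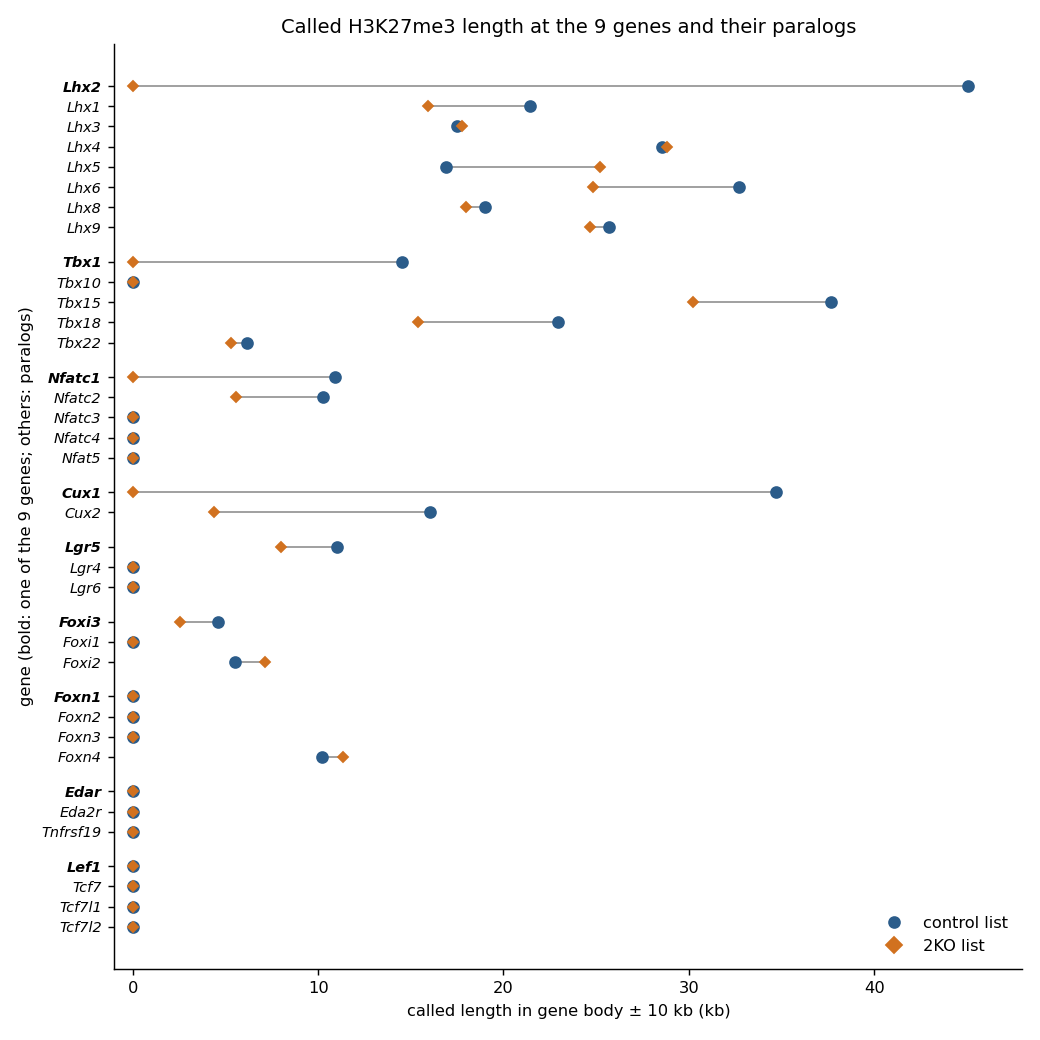
Called H3K27me3 length in kb within the gene body extended by 10 kb in the control list (blue circles) and the 2KO list (orange diamonds), for the 9 genes (bold) and their 28 paralogs, grouped by family, with 1 list per genotype. A grey line joins the values of a gene. At Lhx2, Tbx1, Nfatc1 and Cux1 the orange symbol is at 0, and at every paralog with a control peak it is above 0.

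Of 27 other genes known from the hair follicle, 13 had control peaks within 10 kb and 2 of these also 2KO peaks, with 14.5% of the called control length under 2KO peaks. Over all protein-coding genes 14.9% had a control peak and 59.8% of these also a 2KO peak, with 51.9% of the control length under 2KO peaks. Shh, the hedgehog ligand of the placode, had 14.1 kb in the control and 14.0 kb in the 2KO list, and Cd34, a bulge surface marker, 4.78 and 7.50 kb. The other 11 had a control peak only, with under 3 kb called in 6 of them. Of all control peaks under 3 kb, 28.7% were met by a 2KO peak. The 6 were counted by length clipped to the window. They include a gene whose whole peak was 3.61 kb wide, in the class from 3 to 5 kb, of which 42.3% were met. The called lengths at the 11 genes ran from 0.808 kb to 41.9 kb with a median of 3.00 kb. The longest were at Trps1, a zinc finger repressor (41.9 kb), Hoxc13, a hair shaft homeobox gene (27.7 kb in its window, part of a 97.0 kb peak of which 7.02% lay under 2KO peaks, all outside the window), Foxc1, a forkhead factor of bulge quiescence (12.2 kb), and Runx1, a factor of hair cycle entry (7.97 kb). In 7 of the 11 no control peak reached the gene body itself: counting the gene body alone, 4 of the 6 marked genes of the list were marked in the control list only.

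None of 6 genes of the ectodysplasin pathway, Edar included, had a peak in either list, which in so short a list is near the 14.9% of all genes with a control peak. Of 14 genes of Wnt reception and the Tcf/Lef factors, 5 had control peaks, beside the same 14.9%. Of these 5, 3 also had 2KO peaks, Lgr5 among them, beside 59.8% of all control-marked genes. The other 4 marked genes encode the R-spondins, the ligands of Lgr5. Rspo2 had 6.59 kb in the control and 6.70 kb in the 2KO list, and Rspo4 2.98 and 6.10 kb. Rspo1 (11.9 kb) and Rspo3 (4.04 kb) were called in the control list only.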

How the data were processed

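The authors deposited called H3K27me3 peaks as positions alone (chromosome and both ends), 1 list for each genotype, and no height, fold or score. Bowtie2 2.3.3.1, SAMtools 1.9 and mm10 are listed in the submitters' processing notes. Which caller and threshold were used, whether input was subtracted and whether libraries were pooled is not given in the sources used here, and each could change which peaks are listed. The input libraries and the Eed cKO library were not used here. Peak starts were taken to count from 0, and coordinates are given counting from 1.

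Genes and promoters came from RefSeq tables of GRCm38.p6. A peak counted when it shared 1 bp with the gene body extended by 10 kb. Lengths were clipped to that window. Overlaps and shares came from scripts in Python 3.11.15 (pandas 2.3.3, numpy 2.4.6). The overlap code was checked base by base on 400 gene windows with a simulated list, with 0 wrong. The members and gene lists were chosen with earlier results of these data known. Named were all 9 members and, per list and class, up to 4 genes of greatest called length. Exceptions were the paralogs marked as singled out, Lhx1, Lhx3, Lhx5 and Lhx8, the basal markers Krt5, Krt14 and Trp63, and genes without peaks. Neighbouring genes were named where a described peak lay over them. The 500 kb surroundings were chosen after the lists were examined. Figures used matplotlib 3.10.9.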

Additional observations from a re-analysis of the deposited data

How the results depend on the processing

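No paired analysis was possible because the replicate libraries of a genotype were represented by a single list. The depth per library is unknown, so it cannot be said which calls it limits. Under 12 alternatives of window, overlap and peaks, the number of the 9 genes with a 2KO peak, which was also the number with both peaks, went from 2 to 1 with the gene body alone, with peaks of 3 kb or more, with peaks of 5 kb or more and with start sites extended by 1 kb (7 genes listed), and was 3 with a window of 50 kb, which takes in the peak beside Tbx1. Where it was 1, the gene without a 2KO peak was Foxi3, except at start sites, where Lgr5 is not listed. The share of control bases under 2KO peaks (8.71%) was 7.41% with the gene body alone, 8.68, 9.79 and 8.38% with windows of 1, 5 and 50 kb, 9.66% where at least 50% of a peak had to lie in the window, 8.79% with equal numbers of the widest peaks, 6.67 and 7.18% with peaks of at least 3 and 5 kb, 8.52% after merging within 3 kb, 6.05% at start sites and 7.37% over whole control peaks. Leaving out each gene in turn gave 2.32 to 13.9%, the lowest without Lgr5 and the highest without Lhx2. The counts of genes with a control peak, and with a control peak alone, stayed within 1.5 times throughout. Of 194 called lengths per gene recomputed, 176 stayed within 1.5 times, as did 387 of 440 counts of the other lists. With equal numbers of the widest peaks, 7 in place of 13 other hair follicle genes had a control peak, and 2 of them both.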

Other observations

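Over all promoter windows of protein-coding genes, the share of control-covered windows that were also under a 2KO peak differed with CpG count. It was 63.7% (95% Wilson interval 57.6 to 69.4, 160 of 251 windows) at 5 to 9 CpG, 58.8% (54.4 to 63.0, 291 of 495) at 10 to 19, 50.2% (45.4 to 55.1, 203 of 404) at 20 to 29 and 35.4% (30.6 to 40.5, 125 of 353) at 30 or more. Below 5 CpG it was 56.1% (46.3 to 65.5, 55 of 98). The intervals cover counting error only, and windows of 1 gene or under 1 peak are not independent. The outer Lhx2 start and the Foxi3 start are in the class with the most CpG. The inner Lhx2, inner Tbx1 and Cux1 starts, with 29, 26 and 25 CpG, are in the class of 20 to 29. The outer Tbx1 start, with 16, is in that of 10 to 19. All 6 of these windows were under a control peak and none under a 2KO peak.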
